A study of Rattus norvegicus with 15 samples.

Results

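The cytosolic ribosomal proteins are the protein parts of the 2 subunits that make up the ribosome outside the mitochondria. Their genes were taken as those whose probe set carried exactly 1 annotated symbol of the form Rpl or Rps with a number, with or without a final a, x or l, or the symbol Rplp0, Rplp1, Rplp2 or Rpsa. Where a gene had several probe sets, the one with the highest mean over 15 arrays stood for it. The rule gave 44 of the 14218 genes so named, 30 of the large and 14 of the small subunit, with 50 probe sets of the 31099 on the array. A further 33 probe sets carried several symbols of which 1 or more followed the rule, and the rule left them out. Ribosomal protein genes have many processed copies in the genome, with which a probe may share its sequence.

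Retinas of adult Long-Evans rats, male according to the methods, were studied at 3 times of day in darkness or light. All animals had spent the night in darkness. The controls, labelled t0, were collected at 7 am (0 ZT dark). Animals left in darkness were collected at 10 am (3 ZT dark) or at 1 pm (6 ZT dark). Animals placed in light of 1000 lux were collected after 3 hours (3 ZT light) or 6 hours (6 ZT light). For the last group a second label gives 3 hours of light, and the duration in the sample titles and the methods was used. Each condition had 3 replicas, and the labels do not say whether these were separate animals, so that the p-values below weigh differences only against the scatter of these arrays, which may be technical. The values are log2 signals on a 3′ expression array, a scale on which 1 unit is a doubling.

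Ribosomal protein mRNAs are among the most abundant messages of most cells and are regulated largely as a group, both in transcription and in translation. Many begin with a tract of pyrimidines at their first base, through which the TOR kinase pathway controls how well they are translated. In the retina, photoreceptors renew a part of their outer segments every day and so make protein at a high rate.

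To look for runs of pyrimidines near the start, 30 bases around the annotated start were read (10 before it and 20 from it on). They came from the RefSeq promoters of build GRCr8, coding strand, 5′ to 3′. Of the 44 genes, 39 had an entry. An unbroken run of at least 8 C or T in this window occurred in 22 of the 39 (56.4%), against 10.8% of all 33469 promoters. It occurred in 15 of 26 genes of the large and in 7 of 13 of the small subunit. The motif CCGGAAG, searched on both strands of the whole 300 bases, occurred in 8 of the 39 (20.5%), against 8.75% of all promoters. The windows of 8 genes described below follow, with the longest run of C and T in capitals where it reached 8 bases.
Rpl34 (chr2:221962264-221962293, minus strand): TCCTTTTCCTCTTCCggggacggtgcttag
Rps15 (chr7:10068096-10068125, minus strand): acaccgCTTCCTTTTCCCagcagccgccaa
Rps28 (chr7:15311314-15311343, minus strand): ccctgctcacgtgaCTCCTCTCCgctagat
Rpl39 (chrX:121195877-121195906, minus strand): taatcgcgttcttccggcctgTCCTTTCTC
Rps23 (chr2:23814507-23814536, plus strand): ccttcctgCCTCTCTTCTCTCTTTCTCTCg
Rpl23 (chr10:83272165-83272194, minus strand): CTTCCTTTCTgactctttccggacgctcaa
Rpl24 (chr11:58128386-58128415, minus strand): tagggaggagattctctaccctataaggtg
Rps27l (chr8:76443648-76443677, plus strand): ttcatttgtcattatttgtggtgtccagag
Rpl24 and Rps27l had no such run in the window. A run was counted anywhere in the window and need not include the first base. In Rpl23 the run ended before the annotated start, and in Rps28 and Rpl39 it began after the first base. The counts are thus not counts of tracts at the first base. The annotated start may lie some bases from the start used in retina, so that a missing run says only that these letters were not in this window.

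The ribosomal protein genes stood near the top of the array. Of the 44 genes, 38 averaged above 13 (26 large, 12 small), at means from 13.6 to 15.1, where the brightest value of any probe set was 15.57. Only 1107 of all tested probe sets (3.57%) averaged above 13. The highest means belonged to Rps29 (15.08), a zinc-binding protein of the small subunit head, Rpl26 (15.01) and Rpl19 (14.96). At such levels a hybridisation signal can approach its ceiling, and a difference may be understated. Signals of different probe sets are not on 1 scale of abundance, so that this order is one of signals.

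The other 6 genes were dim. Rpl3l, the striated-muscle relative of Rpl3, had the lowest mean (6.25), followed by Rpl30 (7.75), Rps13 (8.38), Rpl28 (8.42), Rps27l (9.48) and Rpl39 (9.90). Rps27l is a relative of Rps27 that p53 induces. Rpl28, Rpl30 and Rps13 also had bright probe sets among those with several symbols, so that the low signal may not stand for the gene. The labelled tissue was borne out by its markers. All 7 measured rod genes were bright, with a list mean between 14.7 and 14.9 in the 15 arrays, led by Sag (15.4). Lens genes were also present, at list means from 8.71 to 12.8.

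The arrays of a replica number resembled each other. The median of all probe sets lay between 8.28 and 8.81, in separate ranges for numbers 1, 2 and 3. Deviations from the condition means correlated between 0.24 and 0.80 for 30 pairs of the same number and between -0.54 and 0.23 for 60 pairs of different numbers. Between 3.58% and 14.1% of probe sets held exactly equal values in 2 arrays of a number, against at most 0.0902% otherwise. The sources used here do not give whether the 15 arrays were normalised together or number by number, so that the likeness of arrays of a number may reflect samples or this step, and neither was tested. Comparisons were therefore made within replica numbers. Conditions were compared with limma over 31042 probe sets, with condition and replica number as terms and Benjamini-Hochberg adjustment over all of them.

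Before any comparison, 2 arrays stood apart in a measure of RNA integrity. The 3′ probe set of Actb exceeded the 5′ probe set by 2.10 in 0 ZT dark replica 1 and by 2.40 in 3 ZT light replica 2, and by 0.71 to 1.37 in the other arrays. The same difference for Gapdh was 0.26 and 0.36 in these arrays and at most 0.13 elsewhere. Results that rest on them are given with and without them.

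The mean of the 38 bright genes was 14.40, 14.50 and 14.67 in replicas 1, 2 and 3 of 0 ZT dark. At 3 ZT dark it was 14.39, 14.47 and 14.66, each close to the control of its number. At 3 ZT light it was 14.44, 13.96 and 14.60. Replica 2 was thus the lowest of the 15 arrays, while replicas 1 and 3 lay close to their controls. At 6 ZT dark the mean was 14.42, 14.15 and 14.48, and at 6 ZT light 14.42, 14.34 and 14.46. At 6 ZT, replicas 2 and 3 lay below their controls in darkness and in light, and replica 1 did not. The ranges of all 5 conditions overlapped.

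**Figure D1:**
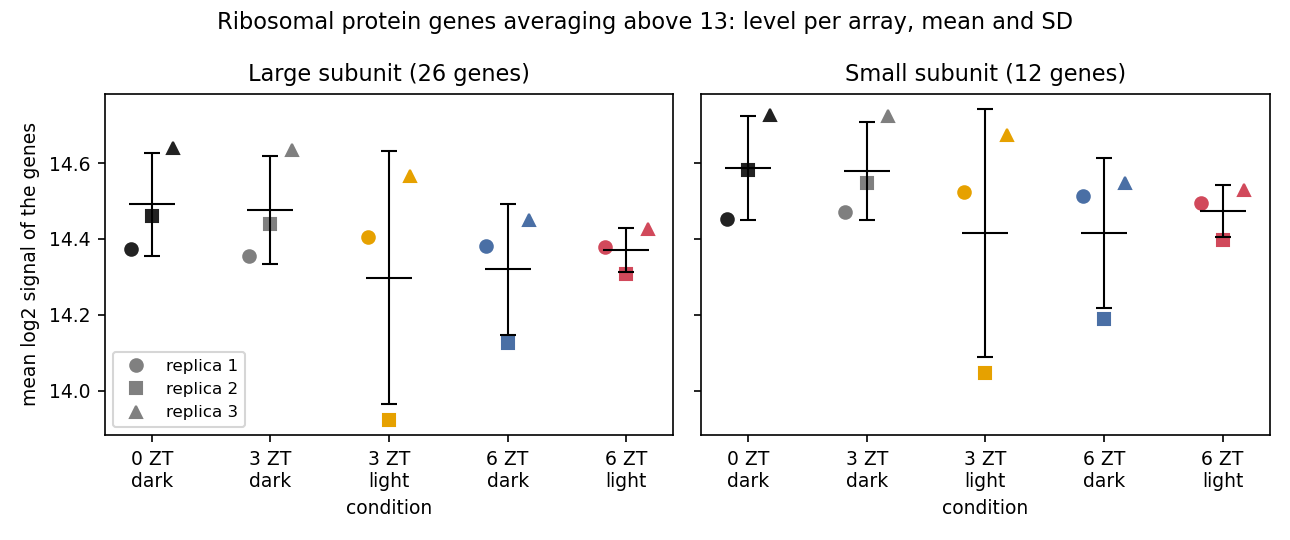
Mean log2 signal of the ribosomal protein genes averaging above 13, for the large (left) and small (right) subunit, in each array by condition. Symbols give the replica number and bars the mean and SD of 3 replicas. In both panels 3 ZT light replica 2 is the lowest array and 6 ZT dark replica 2 the next.

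No member changed in any comparison at an adjusted p under 0.05. Among all probe sets, 0.00322% passed in 3 ZT light against 0 ZT dark and the same share in 3 ZT light against 3 ZT dark. In the other 4 comparisons, in the difference of the light effects and in the test over all 5 conditions, 0% passed. On simulated data for 3 ZT light against 0 ZT dark, this fit recovered 41 of 100 genes changed by 0.5 and 84 of 100 changed by 1. The medians over all replicas given below are smaller than either of these changes. The simulated noise had equal spread in all arrays. In the data limma's array quality weights ran from 0.16 in 3 ZT light replica 2 to 7.45 in 6 ZT light replica 3. The recovery may therefore differ for the arrays measured. In the F test over the 5 conditions, 1 member had an unadjusted p under 0.05 against 6.8% of all probe sets. It was Rpl39 (unadjusted p = 0.0134, limma's adjusted p = 0.688). Next came Rpl30 and Rps23, at adjusted p-values of 0.708.

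Whether light changed these genes after 3 hours was asked first against the dark controls at 7 am. The median difference over the 44 genes was -0.154, with 42 lower and 2 higher, where the median of all probe sets was 0.004. The median was -0.157 for the large and -0.154 for the small subunit. All 38 bright genes had a lower mean than in the controls, and 723 of the 1107 probe sets above 13 did, with a median of -0.079 for the latter. Only Rpl18 had an unadjusted p under 0.05 and a lower mean, against 4.43% of all probe sets.

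The size of this difference was not alike in the replicas, and replica 1 did not share its direction. The median of the members was 0.018 in replica 1, -0.443 in replica 2 and -0.060 in replica 3, and 14, 40 and 41 genes were lower. In all 3 replicas 12 members were lower, against 11% of all probe sets. Without 3 ZT light replica 2 the median moved from -0.154 to -0.044, with 36 genes lower. Without 0 ZT dark replica 1 it was -0.220, and without both arrays -0.099, with 43 genes lower in each case. It was -0.098 without 0 ZT dark replica 2, with 41 lower. The size of the difference was thus set mostly by 3 ZT light replica 2, the array with the largest Actb difference. The part of RNA integrity in the result was not tested. Since whole retinas were measured, fewer cells of a type cannot be told apart from less RNA per cell.

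**Figure D2:**
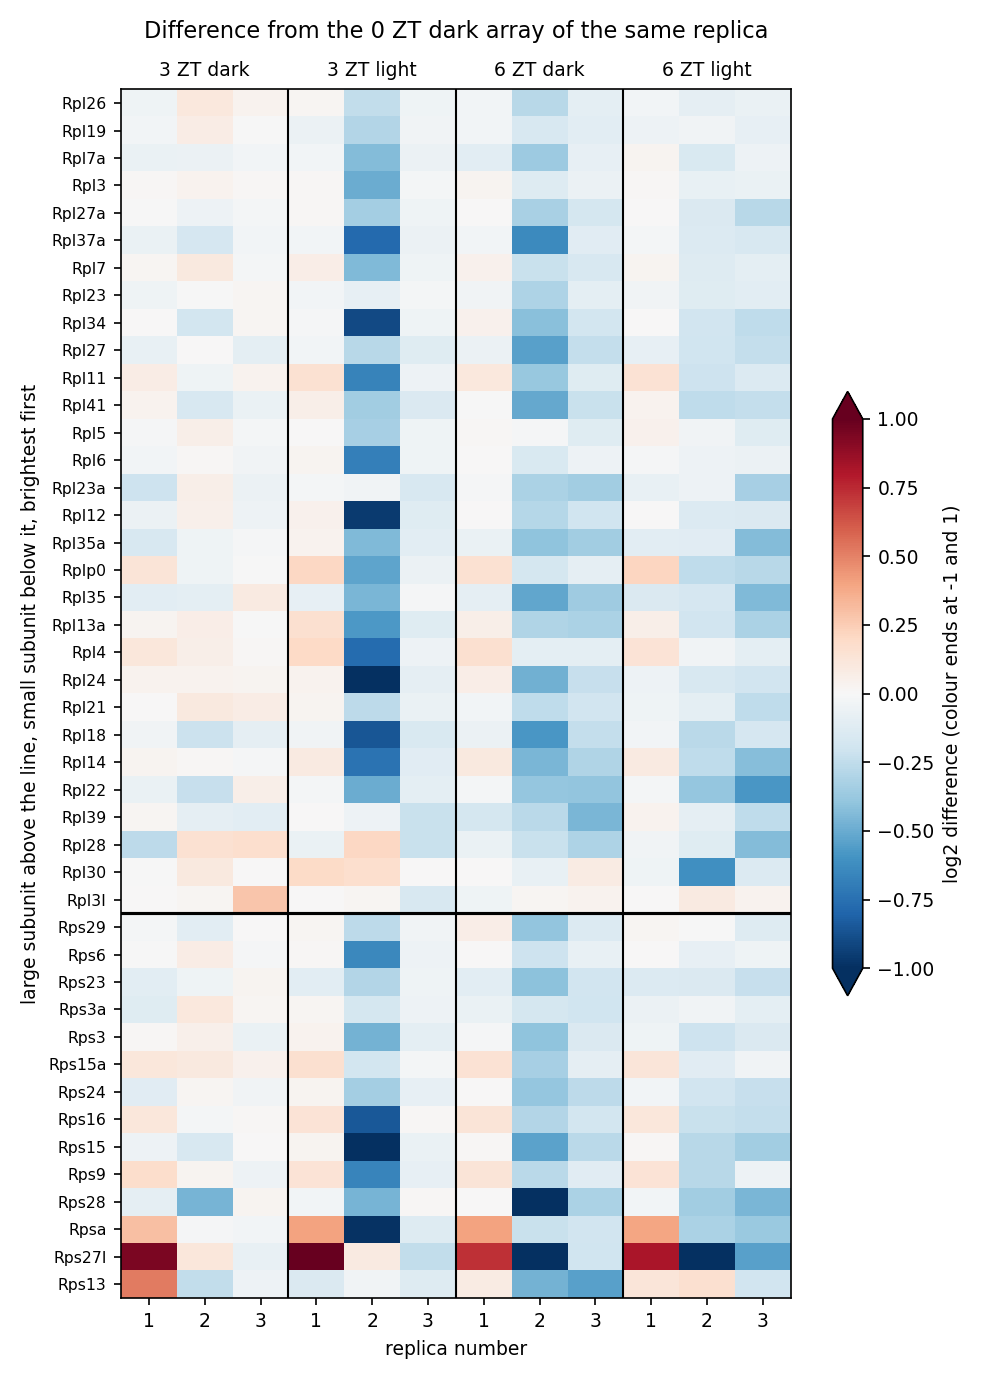
Log2 difference of each of the 44 genes from the 0 ZT dark array of the same replica number, in 12 arrays; rows are genes with the brightest of each subunit on top, columns are replicas within conditions. Blue is lower and red higher. The replica 2 column of 3 ZT light is blue in 40 genes, from -1.53 in Rpl24, and the dim genes at the foot of each block lie between -0.05 and 0.20 there.

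Within that replica the genes differed widely, from -1.53 to 0.20. Rpl24, which forms a bridge between the subunits, had 14.05, 14.24 and 14.38 in replicas 1 to 3 of 0 ZT dark. At 3 ZT light it had 14.09, 12.71 and 14.28. Replica 2 alone was low, and the other 2 arrays lay within the range of the controls. The fitted difference was -0.53 (SE 0.274), at an adjusted p of 0.674 with limma.

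Rpl34, a large-subunit protein, had 14.65, 14.64 and 14.89 in the controls and 14.64, 13.73 and 14.85 at 3 ZT light. Again only replica 2 was low, and the difference of -0.32 (SE 0.159, limma's adjusted p = 0.666) shrank to -0.08 without that array. Rps15, chosen after its values were seen, was lower by 1.10 in replica 2 and differed by 0.03 and -0.07 from its control in replicas 1 and 3. Rpl12, chosen likewise, was lower by 0.96 in replica 2. Rpsa, the laminin receptor precursor that sits on the small subunit, was lower by 0.99. In contrast Rpl23 and Rpl23a, also chosen after their values were seen, differed by -0.08 and -0.04 in the same array. The 6 dim genes lay between -0.05 and 0.20 there.

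Rpl18, of the large subunit, was the member with the lowest p in this comparison. It had 14.01, 14.28 and 14.36 in the controls and 13.98, 13.43 and 14.21 at 3 ZT light. It was lower in every replica, by 0.04, 0.85 and 0.15, and the 2 groups overlapped. The fitted difference was -0.35 (SE 0.135, unadjusted p = 0.0264, limma's adjusted p = 0.625). Without 3 ZT light replica 2 it was -0.16 (adjusted p = 0.917), and without both arrays of large Actb difference -0.24 (adjusted p = 0.854).

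In light against darkness at 3 ZT, both collected at 10 am, the median was -0.145, with 41 genes lower. The median was -0.145 for the large and -0.140 for the small subunit. No member was lower at an unadjusted p under 0.05, against 2.64% of all probe sets. The medians of replicas 1, 2 and 3 were 0.044, -0.375 and -0.066. Of the 1107 probe sets above 13, 808 were also lower, with a median of -0.098 and of -0.237 in replica 2. Of all 31042 probe sets, 15415 were lower. In all 3 replicas 3 members were lower, against 9.43% of all probe sets. Leaving out 3 ZT light replica 2 gave -0.032, still with 40 genes lower, and leaving out both arrays gave -0.039. Rpl24 had the largest difference, -0.56 (SE 0.274, limma's adjusted p = 0.895), which was -0.10 without 3 ZT light replica 2.

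Rps6, the small-subunit protein that S6 kinase phosphorylates when the TOR pathway is active, had 14.81, 14.91 and 14.89 at 3 ZT dark. At 3 ZT light it had 14.82, 14.19 and 14.85. Replica 2 was the only array set apart, and the difference was -0.25 (SE 0.125, limma's adjusted p = 0.895).

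**Figure D3:**
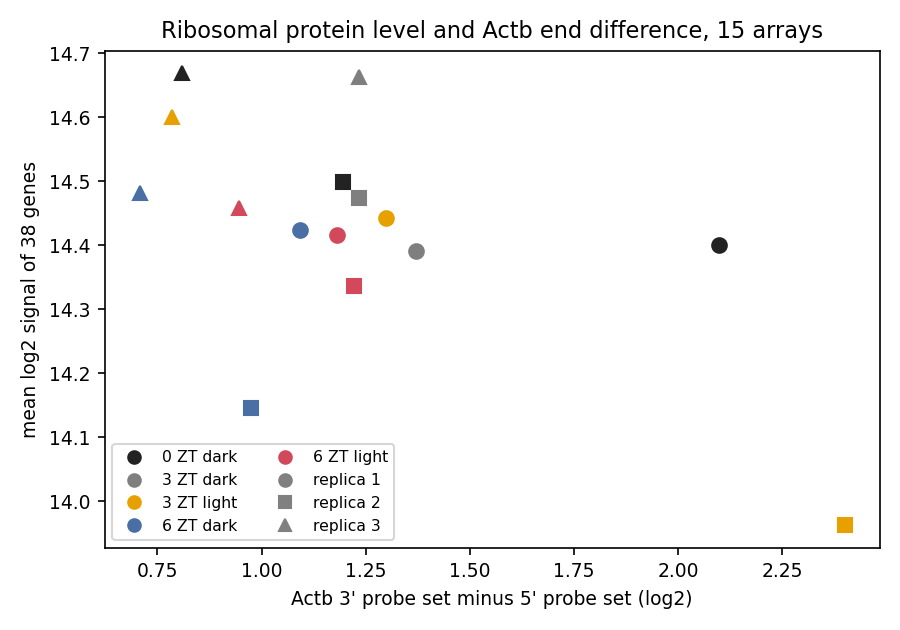
Mean log2 signal of the 38 bright genes in each array (vertical) against the difference between the 3′ and the 5′ probe set of Actb (horizontal, log2). Colours give the condition and symbols the replica number. 3 ZT light replica 2 has the largest Actb difference and the lowest mean, 0 ZT dark replica 1 has the next Actb difference at a mean like that of the other arrays of number 1, and 6 ZT dark replica 2 has a low mean at an Actb difference of 0.974.

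The passage of time in darkness was examined next. At 3 ZT dark, 21 genes were lower and 23 higher than in the controls, and the median was 0.005. The replicas gave medians of -0.005, 0.012 and -0.006. None of the members was lower at an unadjusted p under 0.05, against 0.776% of all probe sets, and 5 were lower in all 3 replicas, against 8.52%. Without 0 ZT dark replica 1 the median was -0.083 with 38 genes lower, and without both arrays -0.055 with 35 lower. In that fit 3 ZT dark replica 1 has no control of its number and is set against the other arrays through the replica term. The medians within numbers 2 and 3, 0.012 and -0.006, do not contain it.

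At 6 ZT dark the median was -0.176, with 42 genes lower, against a median of 0.008 for all probe sets and -0.016 for all probe sets above 13. It was -0.176 for the large and -0.169 for the small subunit, in which all 14 genes were lower. The medians by replica were 0, -0.323 and -0.188. In replica 1, 19 genes were lower and 5 equal. In replicas 2 and 3, 43 and 42 were lower, while the probe sets above 13 had medians of -0.089 and -0.017 there. Lower in all 3 replicas were 18 members, against 15.1% of all probe sets.

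At an unadjusted p under 0.05, 7 members were lower at 6 ZT dark, against 5.26% of all probe sets. They were Rpl39, Rpl27, Rps23, Rpl41, Rps28, Rpl35 and Rpl23a, of which the last pair was chosen after their values were seen. Their adjusted p-values lay between 0.457 and 0.569 with limma. Neither of the 2 arrays of large Actb difference is a 6 ZT dark array, but 1 of them is the control of replica 1. In that replica the median was 0. Leaving out both arrays gave a median of -0.211. It was -0.116 without 0 ZT dark replica 2, with 37 genes lower. Replica 2 of 6 ZT dark had an Actb difference of 0.97, inside the range of the other arrays. Without it and 3 ZT light replica 2, an alternative chosen after seeing the data, the median was -0.093 with 40 genes lower.

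Rpl39 is a small protein that lines the exit tunnel of the large subunit. On a dim probe set (mean 9.90), it had the lowest p of all members. It had 9.67, 10.10 and 10.25 in replicas 1 to 3 of 0 ZT dark and 9.50, 9.83 and 9.79 at 6 ZT dark. Every 6 ZT dark array lay below the control of its number, by 0.17, 0.27 and 0.46, though the 2 groups overlapped because number 1 was low in all conditions. The difference was -0.30 (SE 0.069, unadjusted p = 0.00131, limma's adjusted p = 0.457). It was between -0.36 and -0.24 in all alternatives, with an adjusted p of at least 0.125.

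Light at 6 ZT went with higher Rpl39 than darkness. Its values at 6 ZT light were 9.71, 10.01 and 9.99, each above the 6 ZT dark array of the same number. The difference was 0.20 (SE 0.069, unadjusted p = 0.0165, limma's adjusted p = 0.534). At 3 ZT it was -0.03 (SE 0.069), and the light effect at 6 ZT minus that at 3 ZT was 0.23 (SE 0.098, adjusted p = 0.776). None of these passed the threshold after adjustment.

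Rps28, a small protein at the mRNA exit of the small subunit, had 14.14, 14.11 and 14.33 in the controls and 14.14, 13.01 and 14.01 at 6 ZT dark. Replica 1 was equal to its control within 0.01, replica 2 was lower by 1.10 and replica 3 by 0.32. The difference was -0.47 (SE 0.181, unadjusted p = 0.0260, limma's adjusted p = 0.537). Rps28 was low in number 2 of every later condition, at 13.64 after 3 hours of darkness, 13.64 after 3 hours of light and 13.76 after 6 hours of light.

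Rps23, which lies at the decoding centre, had 14.80, 14.84 and 14.92 in the controls and 14.70, 14.43 and 14.73 at 6 ZT dark. All 3 arrays were below all 3 controls. The difference was -0.24 (SE 0.084, unadjusted p = 0.0174, limma's adjusted p = 0.524). Its values at 6 ZT light, 14.67, 14.70 and 14.70, were also below all controls. Rpl35, which at 6 ZT light differed by -0.14, -0.17 and -0.44 in replicas 1 to 3, had 14.33, 14.21 and 14.44 in the controls and 14.25, 13.69 and 14.09 at 6 ZT dark, with a difference of -0.32 (SE 0.129, adjusted p = 0.544). Rpl27, of the large subunit, gave -0.28 (SE 0.097, adjusted p = 0.523) at 6 ZT dark, and Rpl41, the shortest ribosomal protein, gave -0.25 (SE 0.091, adjusted p = 0.533).

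The genes low in replica 2 of 6 ZT dark were in part others than in replica 2 of 3 ZT light. In 6 ZT dark replica 2, Rps28 and Rps27l differed from the control by -1.10 and -1.09, and in 3 ZT light replica 2 by -0.46 and 0.09. Rpl37a, chosen after its values were seen, was low in both, at -0.64 and -0.78. In 6 ZT dark replica 2 Rpl4 and Rpl3, which reach into the exit tunnel and the peptidyl transferase centre, differed by -0.10 and -0.13, and Rpl5, which carries 5S rRNA with Rpl11, by -0.01. In 3 ZT light replica 2 these 3 genes differed by -0.77, -0.49 and -0.33.

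**Figure D4:**
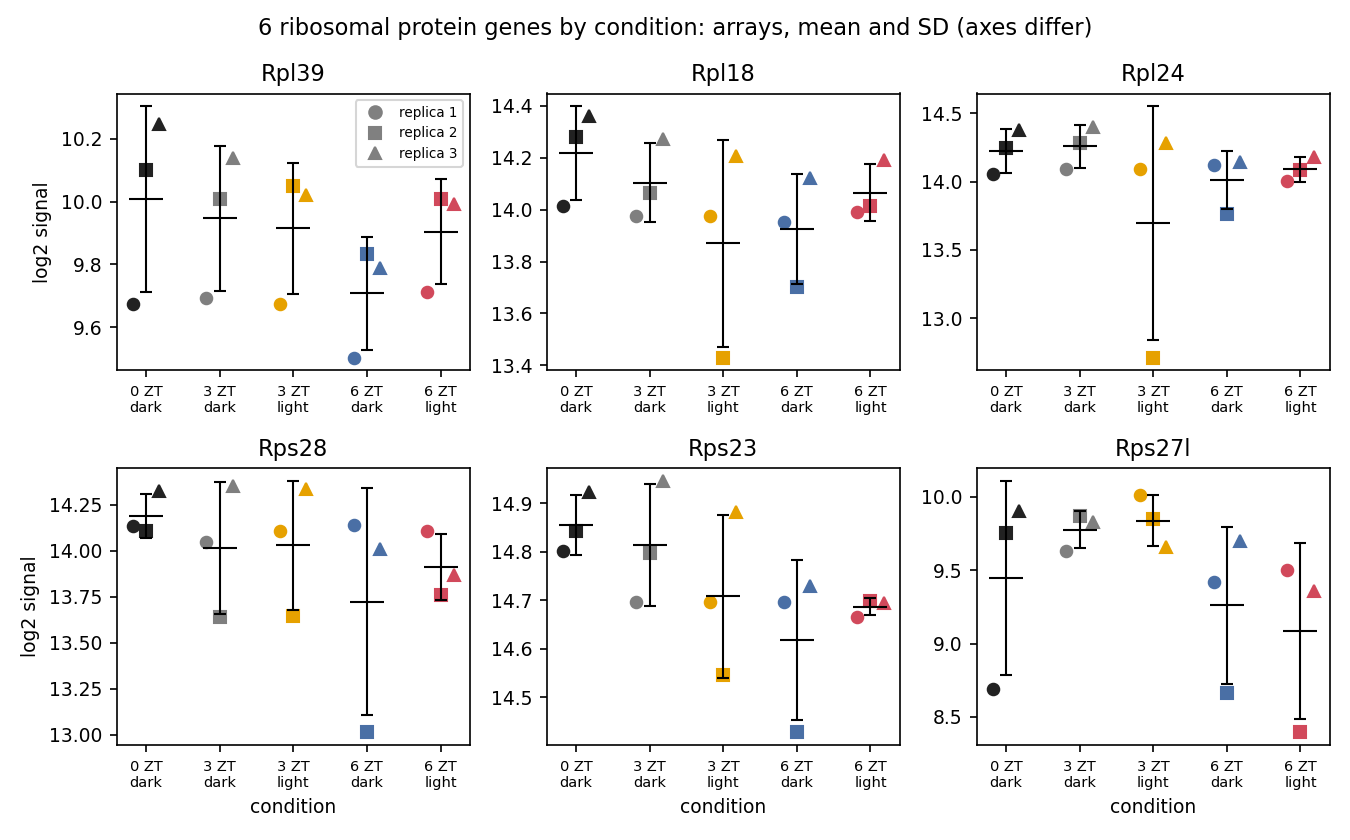
Log2 signal of 6 members in each array by condition, with replica numbers as symbols and mean and SD of 3 replicas as bars; the vertical axes differ. Rpl24 is set apart in 1 array of 3 ZT light (12.71), Rps28 in 1 array of 6 ZT dark (13.01), and Rpl39 lies lower at 6 ZT dark in each replica.

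After 6 hours of light the median against the controls was -0.110, with 41 genes lower, where all probe sets had a median of -0.007. It was -0.118 for the large and -0.107 for the small subunit. The medians of the replicas were 0, -0.144 and -0.193. Lower in all 3 replicas were 20 members, against 9.38% of all probe sets, in fits that share the control arrays with the 6 ZT dark comparison. Only Rpl22 was lower at an unadjusted p under 0.05, against 2.26% of all probe sets. Neither array of large Actb difference is a 6 ZT light array, but 1 of them is a control. Without 0 ZT dark replica 1 the median was -0.183, and without both arrays -0.180, with 43 genes lower. Without 0 ZT dark replica 2 it was -0.033, with 29 genes lower and 15 higher, and without 6 ZT light replica 3 it was -0.058, with 38 lower.

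Rpl22, an RNA-binding protein of the large subunit, had 13.69, 13.62 and 13.93 in the controls and 13.67, 13.23 and 13.35 at 6 ZT light. Replica 1 was lower by only 0.02, and replicas 2 and 3 by 0.39 and 0.58. The difference was -0.33 (SE 0.131, unadjusted p = 0.0300, limma's adjusted p = 0.775). At 6 ZT dark the values were 13.66, 13.23 and 13.54, so that darkness at that hour had a similar level in replicas 1 and 2.

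In light against darkness at 6 ZT, 38 genes were higher, 5 lower and 1, Rps16, equal, with a median of 0.052. It was 0.046 for the large and 0.062 for the small subunit. The medians of the replicas were -0.004, 0.179 and -0.006, and the whole of the shift thus lay in replica 2. Of the 1107 probe sets above 13, 722 were also higher, with a median of 0.032 and of 0.076 in replica 2. Of all 31042 probe sets, 14899 were higher. The members higher in all 3 replicas were 5, Rpl18, Rpl39, Rpl7a, Rps13 and Rps3a, against 17.2% of all probe sets. Rpl7a and Rps3a were named after their values were seen. Only Rpl39 was higher at an unadjusted p under 0.05, against 5.56% of all probe sets. Leaving out 0 ZT dark replica 1 and 3 ZT light replica 2 left the median at 0.052. It could not change, since neither array belongs to the 6 ZT conditions, which keep all 3 replica numbers. Without replica 2 of 6 ZT dark and of 3 ZT light the median was -0.024, with 35 genes lower.

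The light effect at 6 ZT minus that at 3 ZT had a median of 0.198, with 42 genes higher. By replica the medians were -0.059, 0.585 and 0.051, with 9, 42 and 31 genes higher. Without 3 ZT light replica 2 the median was 0.095, with 39 higher, and without both arrays of large Actb difference 0.102, with 39 higher. Without replica 2 of 3 ZT light and of 6 ZT dark it was -0.015, with 20 higher. At an unadjusted p under 0.05 there were 2 members with a higher value, Rpl39 and Rps13, against 4.14% of all probe sets. Both had an adjusted p of 0.776. Over all 1107 probe sets above 13 the median was 0.115, with 880 higher.

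**Figure D5:**
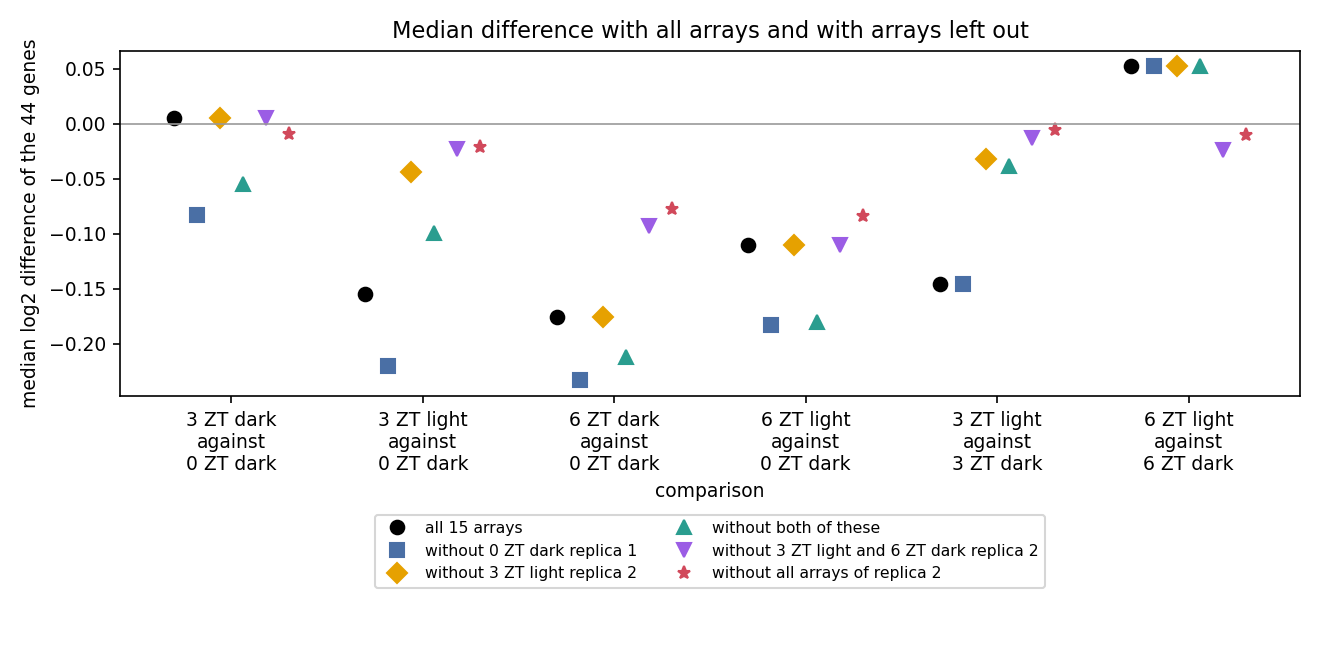
Median log2 difference of the 44 genes in 6 comparisons (horizontal) with all 15 arrays and with arrays left out (symbols). In 3 ZT light against 0 ZT dark the median runs from -0.220 without 0 ZT dark replica 1 to -0.021 without all arrays of replica 2, and in 6 ZT light against 6 ZT dark it lies on both sides of 0.

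The medians of the large and the small subunit lay close together in every comparison. The mean of the 26 bright large-subunit genes was below that of the 12 small-subunit genes in all 15 arrays, by a difference between -0.13 and -0.06. The gap is one of signals and not of subunit numbers. In the 6 comparisons the median of the large subunit minus that of the small was between -0.016 and -0.003. Within single replicas it was between -0.062 and 0.084. Without 3 ZT light replica 2 it was -0.008 in 3 ZT light against 0 ZT dark and 0.003 against 3 ZT dark. Without 0 ZT dark replica 1 it was, against the controls, 0.008 at 3 ZT light, 0.011 at 6 ZT light, -0.012 at 3 ZT dark and 0.006 at 6 ZT dark. Without both arrays it was 0.013, 0.010, -0.008 and 0.004 in the same order. With any single array left out it lay between -0.054 and 0.034 over the 6 comparisons.

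Among the proteins with a role of their own, Rplp0, the base of the stalk that binds elongation factors, had 13.96, 14.36 and 14.42 in the controls. At 3 ZT light it had 14.17, 13.83 and 14.36. The control of number 1 was the lowest of its number in all conditions, the same array in which Actb had a large end difference. Rpsa behaved likewise, at 13.60 in that control and at 13.90 to 14.00 in the other 4 arrays of number 1. Rps3, a protein of the mRNA entry with a role in DNA repair, had 14.70, 14.80 and 14.85 in the controls and 14.73, 14.33 and 14.76 at 3 ZT light. Rpl11, a partner of Rpl5, was lower by 0.67 in 3 ZT light replica 2 and higher by 0.15 in replica 1.

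The dim genes varied between arrays in other ways. Rps27l had 8.69, 9.75 and 9.90 in the controls, and 9.63, 9.87 and 9.83 at 3 ZT dark. At 3 ZT light it had 10.01, 9.85 and 9.66, at 6 ZT dark 9.42, 8.66 and 9.70, and at 6 ZT light 9.50, 8.40 and 9.36. The control of number 1 and number 2 at 6 ZT were the low arrays. Its difference at 3 ZT light was 0.39 (SE 0.350, limma's adjusted p = 0.767) with all arrays, -0.07 without 0 ZT dark replica 1 and -0.26 without both arrays of large Actb difference.

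Rps13, of the small subunit, was low in every array of number 1, at 7.38 to 8.04, against 8.33 to 9.10 elsewhere. Rpl30, whose yeast counterpart binds its own transcript, had 7.40, 7.34 and 7.80 at 6 ZT light and 7.44, 7.88 and 8.01 at 6 ZT dark. It was lower in light in each replica, and the difference was -0.27. Rpl3l lay between 6.10 and 6.54 in all 15 arrays.

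Of the 44 genes, 5 had further probe sets. In 3 of them the sign was opposite to the brightest in 3 ZT light against 0 ZT dark. Rpl14 had -0.25 on its brightest probe set (mean 13.6) and 0.36 on the other (mean 7.93). Rpl7 had -0.14 (mean 14.7) and 0.44 (mean 12.1), and Rpl3 -0.17 (mean 14.9) and 0.03 (mean 9.36). Signs also differed in light against darkness at 6 ZT, at 0.02 and -0.07 for Rpl14, 0.05 and -0.21 for Rpl7, and 0.01 and -0.07 for Rpl3. Rpsa had -0.09 there on its brightest probe set (mean 14.0), and -0.19 and 0.03 on the others (means 13.2 and 13.6). At 6 ZT dark against the controls these Rpsa probe sets gave -0.005, -0.05 and -0.31, and at 3 ZT light -0.24, -0.11 and -0.21. Rps24, chosen after its values were seen, had -0.22 on its brightest probe set (mean 14.5) and -0.81 on a dim one (mean 8.32) at 6 ZT dark, and 0.06 and 0.78 in light against darkness at 6 ZT. None of these passed the adjusted threshold. The 33 probe sets with several symbols, compared after seeing the data, had medians of -0.267 at 3 ZT light, -0.150 at 6 ZT light, -0.015 at 3 ZT dark and -0.179 at 6 ZT dark against the controls.

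By the rule of the methods, a ratio to the control of the same number above 1.6 or below 0.7 in all 3 replicas, no member was counted in any of the 4 comparisons with 0 ZT dark. Of all probe sets, 0.0741% lay below 0.7 at 3 ZT light, 0.0709% at 6 ZT light, 0.0161% at 3 ZT dark and 0.287% at 6 ZT dark. Above 1.6 there were 0.058%, 0.0709%, 0% and 0.0644% in the same order.

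The bright genes with a pyrimidine run in the window around their annotated start were set beside those without. At 3 ZT light the median against the controls was -0.174 for the 18 bright genes with the run and -0.183 for the 16 without. At 6 ZT dark it was -0.202 and -0.139, and at 6 ZT light -0.150 and -0.080. These are descriptions, since the genes share their arrays.

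Genes with which the ribosomal proteins work were read from lists set by function. Of 41 translation initiation and elongation factors, 36 were measured. Their median was -0.078 at 3 ZT light, 0.018 at 6 ZT light, 0.025 at 3 ZT dark and 0.024 at 6 ZT dark against the controls, and none passed the adjusted threshold. Their median in replica 2 was -0.236 at 3 ZT light and -0.012 at 6 ZT dark. Eef1a1, which brings tRNA to the ribosome, was at 14.8 on average and had -0.08 and 0.00 in these comparisons. Of 44 measured genes for ribosome biogenesis, none passed, at medians of -0.015 at 3 ZT light and -0.011 at 6 ZT dark. Of 22 measured genes of TOR signalling to translation, none passed, at medians of -0.130 and -0.026.

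The 73 proteins of the mitochondrial ribosome, coded in the nucleus, had medians of -0.219 at 3 ZT light, -0.187 at 6 ZT light, -0.055 at 3 ZT dark and -0.261 at 6 ZT dark against the controls. No gene of this list passed either, and the lowest adjusted p with limma was 0.408. In replica 2 their medians were -0.394 at 3 ZT light and -0.393 at 6 ZT dark. In light against darkness at 6 ZT they had 0.079, with 60 higher. Of 7 further genes of the cytosolic ribosome or named for it, outside the naming rule, 2 were measured. Rack1, a scaffold on the small subunit, differed by -0.09 at 3 ZT light and -0.04 at 6 ZT dark, and Rpl7l1, a relative of Rpl7, by -0.11 and 0.19.

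Markers of other cells were set beside the arrays with low members. In 3 ZT light replica 2 the cone list had its lowest mean (11.5) and the Müller glia list its lowest (12.4) over the 15 arrays, and the microglia list too (7.84). Rod genes were at 14.8 there, and lens genes at 10.3, the lowest of the 3 ZT light arrays. In 6 ZT dark replica 2 the lens list had its highest mean (12.8) and the Müller glia list its highest (13.03). Rods were at 14.653 in that array, where their lowest over the 15 arrays was 14.651, and cones at 11.6. The bipolar, ganglion, pigment epithelium and blood lists lay inside their ranges in both arrays. They had 10.5, 12.4, 11.6 and 9.76 in 3 ZT light replica 2, and 11.3, 12.4, 11.6 and 9.42 in 6 ZT dark replica 2. The part of these cell types in the ribosomal protein values was not tested.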

How the data were processed

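RNA of rat retinas in 5 conditions with 3 replicas each was hybridised to 15 Affymetrix RAT230_2 arrays. Log2 values were deposited, which the authors computed with the Robust Multi-array Average. The software is not given in the sources used here. This method models the background, equalises arrays by quantiles and summarises probes by median polish. Whether it was run over all arrays or within each replica number is not given in the sources used here. The log2 values were used as deposited. Of 31099 probe sets, 20832 had 1 symbol, 436 several and 9831 none. The members and lists were chosen with earlier results of these data known. limma 3.58.1 in R 4.3.3 was fitted to 31042 probe sets (57 controls left out), with condition and replica number as terms, since the methods take ratios within a number. Likeness within a number was also checked: deviations were closest to an array of the same number in 60 of 60 checks. Normalisation number by number could also give this, so that the check cannot show whether arrays of a number are paired samples. Genes named in the text were the 2 of lowest p in each direction of each comparison, the 3 of lowest F-test p, the 3 highest and lowest means, a list by role, and genes whose probe sets had opposite signs in a comparison and differed by over 0.5. Alternatives were quantile and cyclic loess normalization, array weights, no replicate block, other ratio limits, other probe sets and arrays left out. Simulated data with known changes, and with noise of equal spread in all arrays, were analysed the same way, with 6 false among 131 calls. The number of arrays limits the precision. Figures were drawn with matplotlib 3.10.9.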

Additional observations from a re-analysis of the deposited data

Results flagged for a closer look

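Rpl30, a large-subunit protein with a dim probe set that may not stand for the gene, was flagged by the signs of its light effects. Light against darkness was positive in every replica at 3 ZT (0.19, 0.07 and 0.003) and negative in every replica at 6 ZT (-0.04, -0.54 and -0.22). Some of these values are close to no difference. The fitted light effect was 0.09 at 3 ZT (limma's adjusted p = 0.927) and -0.27 at 6 ZT (limma's adjusted p = 0.585). The light effect at 6 ZT minus that at 3 ZT was -0.35, which did not pass limma's test of the difference (adjusted p = 0.776).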

How the results depend on the processing

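No member passed an adjusted p of 0.05, and none the ratio rule, under any alternative run. Over all probe sets limma's calls went from 0 or 1 to 27 at 3 ZT light, 41 at 6 ZT light and 375 in light against darkness at 6 ZT with array quality weights, and to 38 at 6 ZT light without 3 ZT light replica 2 (26 without 6 ZT dark replica 2 as well). Leaving out the replicate block cannot change the medians, since each condition holds 1 array of each number. They stayed at -0.154 at 3 ZT light, -0.110 at 6 ZT light and -0.176 at 6 ZT dark against 0 ZT dark. Only the p-values could change. No call of a member did, while the 1 probe set called in 3 ZT light against 3 ZT dark was lost. With 1 array left out, the median lay between -0.220 and -0.044 at 3 ZT light (-0.098 without 0 ZT dark replica 2), -0.183 and -0.033 at 6 ZT light (lowest in size without 0 ZT dark replica 2, -0.058 without 6 ZT light replica 3), -0.233 and -0.116 at 6 ZT dark, -0.083 and 0.064 at 3 ZT dark, -0.211 and -0.032 for 3 ZT light against 3 ZT dark, 0.014 and 0.102 for 6 ZT light against 6 ZT dark, and 0.095 and 0.261 for the light effect at 6 ZT minus that at 3 ZT. This last median was 0.102 with quantile and 0.077 with cyclic loess normalization and 0.063 with array weights, and its alternatives were all added after seeing the data. The median at 3 ZT dark was also -0.013 with quantile and -0.035 with cyclic loess normalization, -0.017 with array weights, -0.055 without both arrays of large Actb difference, -0.009 without replica number 2 and -0.015 with the probe sets of several symbols, the last 2 chosen after seeing the data.

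The median of the large minus that of the small subunit ran, with 1 array left out, between -0.049 and 0.034 at 3 ZT light, -0.049 and 0.00206 at 3 ZT dark, -0.054 and 0.010 for 3 ZT light against 3 ZT dark, and -0.042 and 0.014 for 6 ZT light against 6 ZT dark. It was 0.010 at 3 ZT dark with every probe set, 0.029 for 3 ZT light against 3 ZT dark without Rpl3l and Rps27l, and, for 6 ZT light against 6 ZT dark, 0.00822 without replica 2 of 3 ZT light and 6 ZT dark and 0.010 without number 2.

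Some genes with small differences changed sign. With 1 array left out, Rps27l ran between -0.065 and 0.69 at 3 ZT light, -0.13 and 0.63 at 3 ZT dark, and -0.0655 and 0.30 for 3 ZT light against 3 ZT dark. Rps13 ran between -0.0857 and 0.105 at 6 ZT light, Rpl3l between -0.00127 and 0.15 at 3 ZT dark and -0.00649 and 0.021 at 6 ZT dark, Rpl30 between -0.039 and 0.041 at 6 ZT dark, and Rplp0 between -0.15 and 0.018 for 6 ZT light against 6 ZT dark. Without both arrays of large Actb difference Rps27l was -0.26 at 3 ZT light, -0.15 at 3 ZT dark and -0.11 for 3 ZT light against 3 ZT dark, Rps13 -0.093 at 6 ZT light and Rpl30 -0.039 at 6 ZT dark. Rps13 at 6 ZT light was -0.00609 with quantile normalization and -0.11 with array weights. At 6 ZT dark, Rpl3l was -0.020, -0.026 and -0.016 and Rpl30 -0.000616, -0.018 and -0.017 with quantile, cyclic loess and array weights, and without replica 2 of 3 ZT light and 6 ZT dark they were -0.010 and -0.00728. The cause was not tested. The signal near the top of the scale limits what these arrays can show of the bright genes.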
